A study of Caenorhabditis elegans with 3 samples.

Results

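Below the 1202 peaks that passed the filter on the irreproducible discovery rate (IDR, a measure of how well peak ranks repeat between replicates), the pooled ELT-3 ChIP-seq list held 1235 peaks of intermediate strength, called sub-threshold peaks here. They were chosen by the deposited peak signal of the pooled list, at 25 or more, and by absence of their exact position from the IDR list. A few overlap an IDR peak in part: without overlaps of at least 1 bp, 1228 would remain. The 1235 peaks made up 12.2% of the 10082 pooled peaks, and the other 7645 had a signal under 25. Chromatin immunoprecipitation and sequencing recovers DNA bound by a protein with an antibody, here labelled as against ELT-3. All 3 libraries came from whole first-stage (L1) larvae, both sexes pooled and age unknown, of the Caenorhabditis elegans strain OP75. It carries the mutation unc-119(ed3) on chromosome III and the insertion wgIs75, from which ELT-3 with a C-terminal GFP-FLAG tag is expressed. No group without the tag was analysed here, and whole larvae mix all tissues, so a peak cannot be assigned to a cell type. Biological replicate 1 was 1 library, and biological replicate 2 was 2 technical libraries with 1 joint alignment, counted as 1 replicate.

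ELT-3 is a transcription factor of the GATA family, whose zinc finger binds the sequence WGATAR, where W is A or T and R is A or G. It is known mainly from the larval epidermis, the tissue that secretes the collagen cuticle, where it acts beside other GATA factors. Which of its binding sites are kept for study depends on where a peak list is cut, and the sub-threshold peaks are those next to that cut.

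By rank, the sub-threshold peaks filled places 1203 to 2437 of the pooled list, directly under the IDR peaks, which were the 1202 strongest. Their signal ran from 25 to 35.5 with a median of 28.9, against a median of 48 for IDR peaks and 17.2 for weaker peaks. The signal is the authors' own value for each peak, on a scale that differs between lists. The 3 sub-threshold peaks closest to the IDR list had signals of 35.477, 35.456 and 35.436, and the 3 lowest IDR peaks had 35.499, 35.545 and 35.545. At the lower edge, the last 3 inside had 25.006, 25.021 and 25.026, and the first 3 outside had 24.999, 24.995 and 24.994. Neither edge lay at a gap in the signal. The deposited q-values of the sub-threshold peaks ran from 0.00596 to 0.136, with a median of 0.0438, against a median of 0.757 for weaker peaks. Every one of the 1235 was 296 bp wide with its summit at the centre.

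**Figure D1:**
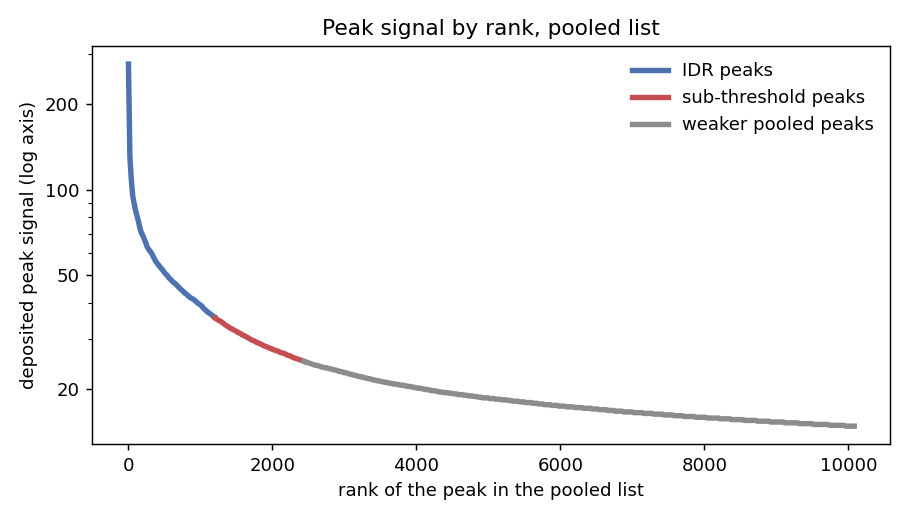
Deposited peak signal (y axis, log scale) against the rank of the peak in the pooled list (x axis), coloured by set. The sub-threshold peaks hold ranks 1203 to 2437, and the curve runs on without a step at either of their ends.

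To show what these sites look like, the 101 bp around the summit are printed for the 8 strongest sub-threshold peaks that held WGATAR in the promoter window of a gene with no IDR summit, apart from excluded chromosomes and untranslated regions. Capitals mark each match to WGATAR, read on the printed strand or, as YTATCW with Y for C or T, on the other strand.
hlh-11: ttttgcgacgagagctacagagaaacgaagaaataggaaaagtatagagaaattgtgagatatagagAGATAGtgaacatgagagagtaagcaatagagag
prx-12: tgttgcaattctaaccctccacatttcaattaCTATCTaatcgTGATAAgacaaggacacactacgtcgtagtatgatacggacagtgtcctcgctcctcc
imph-1: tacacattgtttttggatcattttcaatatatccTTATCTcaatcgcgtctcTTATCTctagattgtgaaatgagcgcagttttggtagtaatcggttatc
mltn-11: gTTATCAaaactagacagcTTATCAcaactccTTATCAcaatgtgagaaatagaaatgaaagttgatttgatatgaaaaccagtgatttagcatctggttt
C37C3.9: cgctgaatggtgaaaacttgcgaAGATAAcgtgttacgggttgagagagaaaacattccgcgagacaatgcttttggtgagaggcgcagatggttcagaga
Y4C6B.2: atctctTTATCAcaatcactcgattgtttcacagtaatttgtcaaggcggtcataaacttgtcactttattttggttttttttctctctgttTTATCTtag
eif-3.G: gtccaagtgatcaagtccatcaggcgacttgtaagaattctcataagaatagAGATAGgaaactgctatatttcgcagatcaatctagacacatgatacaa
semo-1: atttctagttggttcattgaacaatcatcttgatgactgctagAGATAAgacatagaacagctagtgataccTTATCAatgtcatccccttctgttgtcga
The sequences are the plus strand of the RefSeq assembly WBcel235, the same assembly as ce11. They lie at chrIII:9619262-9619362 (hlh-11), chrX:11393077-11393177 (prx-12), chrIII:4553014-4553114 (imph-1), chrV:16636085-16636185 (mltn-11), chrV:7854732-7854832 (C37C3.9), chrIV:5339387-5339487 (Y4C6B.2), chrII:8442196-8442296 (eif-3.G) and chrIV:14050585-14050685 (semo-1). Counted from the 5′ end of the gene, with upstream as negative, their summits were between -565 bp (semo-1) and -51 bp (mltn-11). The window of mltn-11 held 3 matches of the TTATCA form, while those of hlh-11, C37C3.9 and eif-3.G held 1 each.

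The peak at hlh-11, which encodes a basic helix-loop-helix transcription factor, had a signal of 35.5 in the pool, 32 in replicate 1 and 4.58 in replicate 2. That at prx-12, which encodes a peroxisome assembly protein, had 35.4 in the pool and 36.6 in replicate 1, with no peak in replicate 2. At imph-1 the signal was 35.2 in the pool, 33.6 in replicate 1 and 2.95 in replicate 2. Of the 8 peaks, hlh-11 and imph-1 were thus overlapped by a replicate 2 peak, and the other 6 were not. The peak at mltn-11, a gene named for its relation to the molting gene mlt-10, had 35.2 in the pool and 34.3 in replicate 1. At eif-3.G, a subunit gene of the translation initiation factor eIF3, the values were 35.0 and 35.3.

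For comparison, these are the windows at F18A11.2 and C09B7.2, the strongest such promoter peaks without WGATAR and free of untranslated regions, chosen outside the naming rule.
F18A11.2: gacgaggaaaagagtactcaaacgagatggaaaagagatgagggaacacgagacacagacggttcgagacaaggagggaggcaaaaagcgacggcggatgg
C09B7.2: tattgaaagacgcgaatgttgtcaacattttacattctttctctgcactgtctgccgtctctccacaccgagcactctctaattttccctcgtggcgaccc
They are at chrII:13030887-13030987 and chrX:2667932-2668032 on the same strand and assembly, with summits at -762 and -145 bp from the 5′ ends. Their signals were 35.4 and 35.2 in the pool and 36.4 and 35.0 in replicate 1, with no peak in replicate 2. Their GC content was 52.5% and 47.5%, against 31.7% to 47.5% in the 8 windows with a site.

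The GATA site was more frequent at the sub-threshold summits than beside them. WGATAR, searched on both strands within 50 bp of the summit, was present in 424 of 1235 sub-threshold peaks (34.3%, exact 95% interval 31.7 to 37.1). In an equally wide window, 500 bp toward lower coordinates, it was present in 259 (21.0%, interval 18.7 to 23.4). The site was at the summit alone in 326 peaks and in the flank alone in 161, a difference of 13.4 percentage points (two-sided exact McNemar test, p = 6.21e-14). In all pooled peaks the share at the summit was 27.5%. The difference was present in replicate 1 alone (12.1 points) but not in replicate 2 alone, where the peaks at the same ranks gave -0.0810 points (exact p = 1.00). The replicate 2 list is shorter, with 4055 peaks against 10775 in replicate 1, and its peaks are 596 bp wide against at most 296 bp. The same ranks are therefore not the same part of each list, so this does not settle whether the difference repeats. Replicate 1 is part of the pool and overlapped every sub-threshold peak, so its values, here and below, are not independent of the pooled ones. GC content was 42.3% at the sub-threshold summits and 35.5% in their flanks, and its part in the difference was not tested. These and the following p-values are about the peaks of 1 pooled list, not about a population of worms, and the intervals reflect counting error alone.

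Most sub-threshold peaks with a site had 1 match. There was 1 match in 290 peaks, 2 in 102, 3 in 27, 4 in 4 and 5 in 1, and 811 had none. TGATAA, read on both strands like the other forms, was the most frequent form, in 238 peaks (19.3%) against 129 flanks (10.4%). AGATAG was in 94 peaks (7.61%) against 36 flanks (2.91%), AGATAA in 113 against 70, and TGATAG in 80 against 44. All 4 forms were more frequent at the summits than in the flanks, with no test made of single forms. Within the set the share with a site hardly moved with the signal: in 4 equal bins from weakest to strongest it was 33.8%, 33.0%, 34.6% and 35.9%.

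Set between its neighbours, the sub-threshold set held the site less often than IDR peaks and more often than weaker peaks. The site was in 468 of 1202 IDR peaks (38.9%), and the sub-threshold set differed from them by -4.60 points (Fisher's exact test, Benjamini-Hochberg adjusted over 10 comparisons, adjusted p = 0.0310, odds ratio 0.820). It was in 1877 of 7645 weaker peaks (24.6%), and the sub-threshold set was 9.78 points above them (adjusted p = 4.37e-12 in the same exact test, odds ratio 1.61). The first of these calls was lost when the signal minimum was 30 (-2.52 points), when the window was 100 bp each side (-3.59 points) and without the peaks at tRNA genes (-3.65 points). It was also lost in replicate 2 alone (-2.26 points) and in the 79 peaks that replicate 2 overlapped (-0.960 points). The second was lost with the core GATA alone as the motif (2.65 points), and in replicate 2 alone, which gave 0.0304 points. Single-replicate values, here and below, stay within 1 replicate list. Its own 1202 strongest peaks stand in for the IDR peaks, and its own lowest-ranked peaks for the weaker peaks. By location, the site was in 32.7% of sub-threshold peaks in promoters and 28.3% of IDR peaks there. Outside promoters the order of the values was the other way: 36.6% against 49.6% in introns and 35.4% against 46.5% between genes. These differences by location were not tested.

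**Figure D2:**
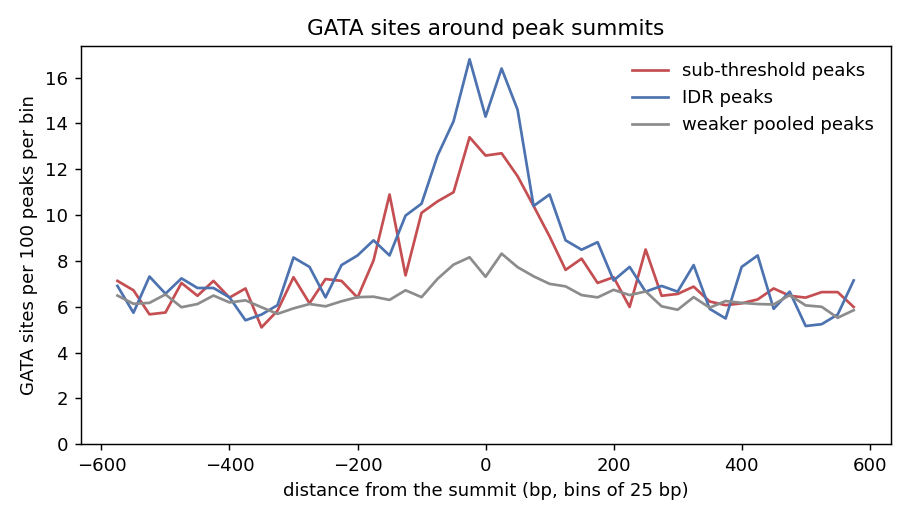
WGATAR matches per 100 peaks in bins of 25 bp (y axis) against distance from the summit (x axis, bp), for sub-threshold peaks, IDR peaks and weaker pooled peaks. In the sub-threshold peaks the bins centred at -25, 0 and 25 bp held 13.4, 12.6 and 12.7 matches per 100 peaks, and single bins away from the summit vary, such as 10.9 at -150 bp.

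A second kind of sequence, made of repeated GA, also marked these summits. Of the 6-base words, the 10 with the largest excess at summits over flanks were picked in the IDR peaks and then counted in the sub-threshold peaks, with each word read on both strands. GAGAGA was in 273 sub-threshold peaks (22.1%, exact 95% interval 19.8 to 24.5) against 59 flanks (4.78%), in 27.1% of IDR peaks and 10.2% of weaker peaks, and in 13.7% of all pooled peaks. AGAGAC, which overlaps it by 5 bases, was in 15% of sub-threshold peaks against 2.91% of flanks, and CGTCTC in 13.7% against 3.08%. ACGCAG was in 10.5% against 2.75%, and CTTATC, which contains part of the GATA site on the other strand, in 12.9% against 4.78%. All 10 words were more frequent at the sub-threshold summits than in their flanks, and no test was made.

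Both GAGAGA and WGATAR were present in 86 sub-threshold peaks, GAGAGA alone in 187, WGATAR alone in 338 and neither in 624 (50.5%). Neither was present in 43.8% of IDR peaks and in 68.2% of weaker peaks. The site was in 31.5% of the sub-threshold peaks with GAGAGA and 35.1% of those without. GAGAGA was most frequent between genes (26.9%) and least frequent in exons (12.4%, exact 95% interval 6.33 to 21.0), with 21.7% in promoters and 20.3% in introns. A match is a run of letters and does not show binding.

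Sub-threshold peaks lay more often in promoters than in any other class, and rarely in exons. A summit counted as promoter when it was from 1000 bp upstream to 200 bp downstream of a protein-coding 5′ end, and otherwise as exon, intron or intergenic in that order. Promoters held 498 summits (40.3%, exact 95% interval 37.6 to 43.1), while such windows cover 21.5% of the genome and held 31.2% of all pooled peaks. Introns held 306 (24.8%, genome 30.4%), the space between genes 342 (27.7%, genome 25%) and exons 89 (7.21%, interval 5.83 to 8.79, genome 23.1%). The exon share was thus 0.312 times, and the promoter share 1.88 times, that of the genome. The median signed summit position relative to the closest 5′ end was -151 bp. In it upstream and downstream distances offset each other, and 59.7% of the summits lay outside promoters. In 331 (26.8%) the summit lay within 500 bp upstream of its closest 5′ end, against 33.1% of IDR peaks and 15.2% of weaker peaks.

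In location, 3 of the 4 shares differed from weaker peaks past the threshold, and the exon share from IDR peaks. Against weaker peaks the promoter share was 12.6 points higher (Fisher's exact test, adjusted p = 8.02e-18) and the exon share differed by -17.3 points, at 24.5% in weaker peaks (exact test, adjusted p = 5.33e-50). The intergenic share was 5.98 points higher (exact test, adjusted p = 1.29e-05), and the intron share differed by -1.25 points (exact test, adjusted p = 0.370). With all annotated genes in place of protein-coding ones, that intron difference was -4.73 points and passed (exact adjusted p = 1.98e-04). Against IDR peaks the exon share was 3.63 points higher (7.21% against 3.58%, exact test, adjusted p = 1.48e-04). That call was lost at a signal minimum of 30 (2.18 points) and in replicate 2 alone (4.40 points). The other 3 differences from IDR peaks did not pass: promoter -3.77 points (exact adjusted p = 0.0927), intron 1.82 points and intergenic -1.68 points (exact adjusted p = 0.370 for each). At a signal minimum of 20 the promoter (-6.79 points) and intergenic (-4.12 points) differences passed, and so did the promoter one with a window of 500 bp upstream to 100 bp downstream (-4.50 points). In replicate 2 alone, against that list's own 1202 strongest peaks, the intron difference had the opposite sign and passed (-5.28 points, exact adjusted p = 0.0399). With the replicate 2 list alone, the differences from its own weaker peaks were 0.761 points for promoters, 3.16 for exons and -2.77 for the space between genes. None of these passed. Within the set the promoter share was 35.4%, 39.8%, 41.7% and 44.3% in the same 4 bins of rising signal.

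**Figure D3:**
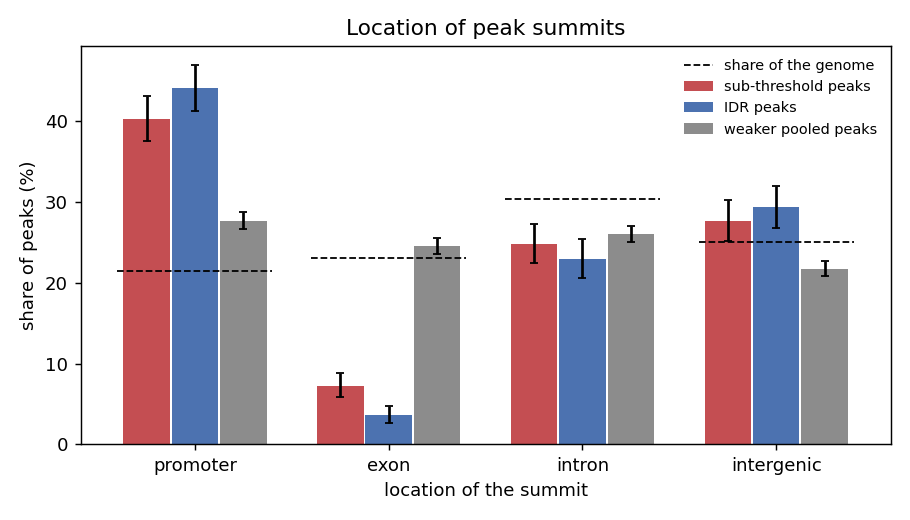
Share of peak summits (y axis, %) in each location class, with exact 95% intervals as error bars and the share of the genome as dashed lines. Sub-threshold peaks had 40.3% of summits in promoters and 7.21% in exons, and weaker peaks 27.7% and 24.5%.

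The sub-threshold peaks were spread over the 6 nuclear chromosomes: 223 on I, 202 on II, 179 on III, 168 on IV, 208 on V and 255 on X. The X chromosome held 20.6% of them and 17.7% of the genome, and chromosome V 16.8% and 20.9%. The share with a GATA site was lowest on I (26.9%) and highest on V (40.4%). An IDR summit lay within 1000 bp of 84 (6.80%) and within 5000 bp of 376 (30.4%), with a median distance of 16878 bp. In weaker peaks these shares were lower, at 3.36% and 17.3%, and the median distance was 26253 bp, with no test made.

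The 2 replicates stood far apart on these peaks. Each of the 1235 overlapped a replicate 1 peak by at least 1 bp, against 93.8% of all pooled peaks, with replicate 1 signals of 21.6 to 54.7 and a median of 28.7. Replicate 1 is part of the pool that chose the peaks, so its overlap is not independent. Replicate 2, also in the pool, overlapped 79 (6.40%, exact 95% interval 5.10 to 7.91), near the 6.56% of all pooled peaks, with signals of 2.03 to 4.79 on its own scale. Of the 1202 IDR peaks, replicate 1 overlapped all and replicate 2 overlapped 117 (9.73%). Passing the IDR filter thus did not mean a peak in both replicate lists. Among the 79 the GATA site was in 30 (38.0%, exact 95% interval 27.3 to 49.6), and among the other 1156 in 394 (34.1%, interval 31.4 to 36.9). Promoters held 41.8% of the 79 and 40.2% of the rest. Depth is unknown, since the lists hold no read counts, and whether it separates the replicates was not tested.

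Genes for small RNAs near these summits were counted by class, and the classes differed. A transfer RNA (tRNA) gene lay within 200 bp of 59 sub-threshold summits (4.78%, exact 95% interval 3.66 to 6.12). The share was 1.66% of IDR peaks (20 peaks), 1.5% of weaker peaks (115 peaks) and 1.92% of all pooled peaks. The set thus exceeded the IDR peaks by 3.11 points (Fisher's exact test, adjusted over 10 small RNA comparisons, adjusted p = 3.61e-05, odds ratio 2.97) and the weaker peaks by 3.27 points (exact test, adjusted p = 1.57e-10, odds ratio 3.29). In replicate 2 alone these differences were -0.00889 and 0.138 points, and neither passed. In replicate 1 alone they were 2.87 and 3.14 points, and both passed. Since replicate 1 overlapped every sub-threshold peak, these values are not an independent repeat.

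The 59 peaks at tRNA genes had signals of 25 to 34.7 with a median of 28.9, the median of the whole set. A GATA site was in 9 of them (15.3%, exact 95% interval 7.22 to 27), and replicate 2 overlapped 2. In location, 27 were in introns of protein-coding genes, 19 between genes, 10 in promoters and 3 in exons. The X chromosome held 27 of the 59 (45.8%), as it held 276 of the 612 annotated tRNA genes (45.1%). Many tRNA genes are near-identical copies, so the reads behind such a peak can be uncertain in origin, and how they were placed is not given in the sources used here.

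Genes for small nucleolar RNAs (snoRNAs), which guide the modification of ribosomal RNA, lay at 29 sub-threshold summits (2.35%, all pooled peaks 0.982%). This was 1.90 points above weaker peaks (Fisher's exact test, adjusted p = 3.37e-09) and differed from IDR peaks (3%) by -0.647 points (exact adjusted p = 0.632). The difference from weaker peaks was 1.74 points in replicate 1 alone and -0.147 in replicate 2 alone, where it did not pass, nor did it in the peaks that replicate 2 overlapped (0.821 points). A GATA site was in 1 of the 29, at C25F6.30. Genes for small nuclear RNAs lay at 2 sub-threshold summits, H27M09.6 and sls-2.17, against 12 IDR summits (exact adjusted p = 0.0164) and 0.278% of all pooled peaks. That difference of -0.836 points was -0.0854 in replicate 2 alone and -0.998 at a signal minimum of 30, and did not pass in either. A microRNA gene, cel-mir-355, lay at 1 summit (0.0810%), which held a GATA site, against 0.250% of IDR peaks and 0.170% of weaker peaks. Ribosomal RNA genes lay at 0 summits in the sub-threshold, IDR and weaker sets alike.

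**Figure D4:**
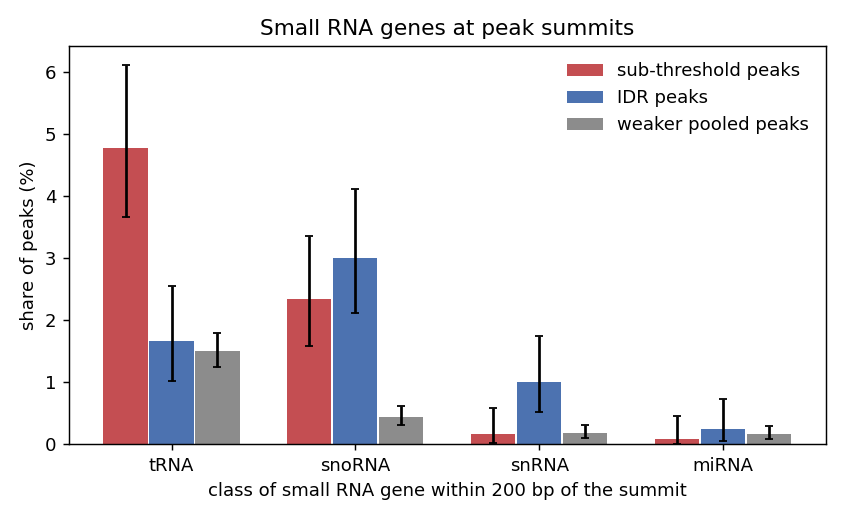
Share of peaks (y axis, %) with a small RNA gene of each class within 200 bp of the summit, with exact 95% intervals as error bars. tRNA genes lay at 4.78% of sub-threshold peaks, 1.66% of IDR peaks and 1.5% of weaker peaks.

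Most genes at sub-threshold peaks had no IDR summit, as was true of all genes. Of 19973 protein-coding genes, 624 (3.12%) had a sub-threshold summit in the promoter window. In 590 (2.95% of all genes, 94.6% of the 624) no IDR summit lay in the promoter window or the gene, while 12 also had one in the promoter window and 22 had one in the gene body alone. Of all protein-coding genes, 95.2% had no IDR summit by the same rule, so the 94.6% is near the background. In replicate 2 alone, peaks at the same ranks reached 322 genes in place of 590. The IDR list reached 688 genes (3.44%), and both sets together 1300. The peak of 174 of the 590 genes held a GATA site, and that of 38 was overlapped by replicate 2. Of the 498 promoter peaks, 373 belonged to 1 gene, 117 to 2 and 8 to 3 or more. A peak between close genes is thus counted for each, and a peak named below for 1 gene can also belong to another.

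Genes of protein synthesis and turnover were reached at shares of 4.88% to 15.2%. No list was tested against the 2.95% of all genes. The exact interval of the share included 2.95% for translation factors (0.596 to 16.5) and tRNA synthetases (2.04 to 25.8). It also did for mitochondrial ribosomal proteins (2.36 to 15.9) and for translocation and vesicle traffic (2.76 to 18.4). The interval began above 2.95% for cytosolic ribosomal protein (3.68), proteasome (5.11), vacuolar ATPase (3.05) and chaperone genes (3.82). Of 78 cytosolic ribosomal protein genes, 44 had an IDR summit and another 7 (8.97%) a sub-threshold peak, against 2.95% of all genes. These were led by rpl-14 (signal 34.9, summit at -288 bp), rpl-32 (34.3), rps-21 (32.9) and rps-13 (32.6), and 0 of the 7 peaks held WGATAR, which was at 29.5% of the 590 genes. The peaks of rpl-32 (2.98) and rpl-25.2 (2.51) were overlapped by replicate 2. Of 33 proteasome genes, 5 (15.2%) had a sub-threshold peak and no IDR summit. They were pas-4, a core subunit gene (34.1, replicate 1 36.1), rpn-11, which encodes the deubiquitinating subunit (32), pbs-7, rpn-2 and rpn-5, all without a site. The peaks of pas-4, pbs-7, rpn-2 and rpn-5, like those of rps-13 and rpl-25.2, also lay in another gene's promoter window.

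Of 70 mitochondrial ribosomal protein genes, 5 (7.14%) were reached, with mrps-21 (32), mrpl-13 (31), mrps-7 (30.7) and mrpl-17 (28.5) the strongest. The translation factor genes eif-3.G and eif-3.E (30.7) were 2 of 41. Of 31 tRNA synthetase genes 0 had an IDR summit, and 3 had a sub-threshold peak, at aars-2 (32, 1 site), nars-1 (30.3) and cars-1 (26.4, 2 sites). Chaperone genes gave 6 of 59 (10.2%), led by dnj-19 (35.3), the mitochondrial Hsp70 gene hsp-6 (33.8), hsp-43 (32.5) and dnj-12 (32.2). Genes of translocation into the endoplasmic reticulum and of vesicle traffic gave 5 of 60 (8.33%), led by the coatomer gene copz-1 (33.6), sec-24.1 (33.2) and rab-6.2 (32.6), with the translocon gene sec-61.A (32.5) after them. The last shares its peak with rps-18. Vacuolar ATPase genes, whose product acidifies organelles, gave 3 of 21 (14.3%), at vha-17 (35.0), vha-15 (33.9, 1 site) and vha-16 (25.4). The peaks of mrps-21, mrps-7, mrpl-17, eif-3.E, nars-1, dnj-19, hsp-6, dnj-12, copz-1 and vha-17 also lay in another gene's promoter window.

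Genes of the epidermis and cuticle were reached at rates near that of all genes or in small numbers. Of 176 cuticle collagen genes, 6 (3.41%) had a sub-threshold peak and no IDR summit. The strongest, at -441 bp from dpy-10, which shapes the body and whose loss activates the osmotic stress response, had a signal of 33.8 in the pool and 33.0 in replicate 1, none in replicate 2, and 3 GATA sites. The next were col-185 (30.8), col-167 (30.4) and col-145 (30.1, 1 site). Through dpy-10 the osmotic stress list had 1 of 18. Among collagen processing genes dpy-18, a prolyl hydroxylase subunit gene, was 1 of 17 (27.2, 1 site), and among 76 molting and cuticle assembly genes ptr-13 was the 1 reached (30.4, 2 sites). The antimicrobial peptide genes cnc-3 (27) and cnc-8 (26.7) were 2 of 29, neither with a site. In the Sma/Mab pathway, which sets body size, unc-40 (30.2) and sma-2 (30, replicate 2 2.41) were 2 of 15.

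Of the 17 epidermal factor genes, 4 of them GATA factor genes, nhr-23, a nuclear receptor gene needed for molting, had a sub-threshold promoter summit, 77 bp downstream of its 5′ end (chromosome I, 7214674 to 7214969, signal 35.1, 1 site). It also has an IDR summit in the gene and is not among the 590. The genes blmp-1, bro-1, ceh-16, grh-1, lin-26, lin-29, lin-39, nhr-25, nhr-67, nhr-73, rnt-1 and ztf-6 had 0 in the promoter window, and lin-29 had 1 within the gene, 2340 bp downstream (26.7). None of the 12 GATA factor genes had a sub-threshold promoter summit: elt-3 itself, elt-1, egl-18, elt-6 and egl-27, and med-1, med-2, end-3, end-1, elt-7, elt-4 and elt-2. At egl-27 a sub-threshold summit lay within the gene, 739 bp downstream of the 5′ end (26.5, no site). Near elt-3 itself, which has an IDR summit in the gene, 5 sub-threshold peaks lay within 20000 bp. No count is given here for other windows of this size, so the 5 have no background beside them. Relative to the 5′ end of elt-3 these peaks lay at -18465 bp (signal 26.6), -16510 bp (30.4), -14881 bp (31.3), 6632 bp (27) and 15986 bp (34.5). Those at -16510, 6632 and 15986 bp held a GATA site. The strain also carries wgIs75, from which tagged ELT-3 is expressed, and its part in the signal at this locus was not tested.

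Nuclear hormone receptor genes gave 12 of 274 (4.38%), led by nhr-47 (35.3, sharing its peak with dnj-19), nhr-17 (33.6, replicate 2 2.76, 1 site), nhr-135 (33.2) and nhr-49 (31.6), a regulator of fat metabolism. Detoxification enzyme genes gave 12 of 188 (6.38%), led by ugt-11 and ugt-9, which share 1 peak (34.5), gst-12 (33.6) and cyp-43A1 (32.4, 1 site). Chemoreceptor genes, expressed mainly in sensory neurons, gave 6 of 1224 (0.490%), with sre-23 (30.9), srd-65 (30.1), srh-76 (29.7) and srr-4 (28.7) the strongest. C-type lectin genes gave 3 of 240 (1.25%: clec-126, clec-1 and clec-102) and F-box genes 4 of 322 (1.24%: fbxb-85, fbxa-90, fbxa-38 and fbxa-202). The Wnt pathway (27 genes), homeobox ceh (63) and heterochronic (15) lists had 0 genes with a sub-threshold promoter summit and no IDR summit. So did the 5 lists of intestine, body wall muscle, pharynx, neuron and germline markers, 48 genes in all. The exact intervals reached up to 12.8% (Wnt), 5.69% (homeobox) and 21.8% (heterochronic), and to between 26.5% and 45.9% for the marker lists. All of these limits lay above the 2.95% of all genes. The counts of 0 thus do not set these lists, or these tissues, apart from all genes. In the heterochronic list, lin-14 had a sub-threshold promoter summit at -205 bp (34.3, no site). It also has an IDR summit in its promoter window or gene, so it is not in these counts. In total 19 of 29 lists had at least 1 gene reached, and small lists leave wide intervals.

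**Figure D5:**
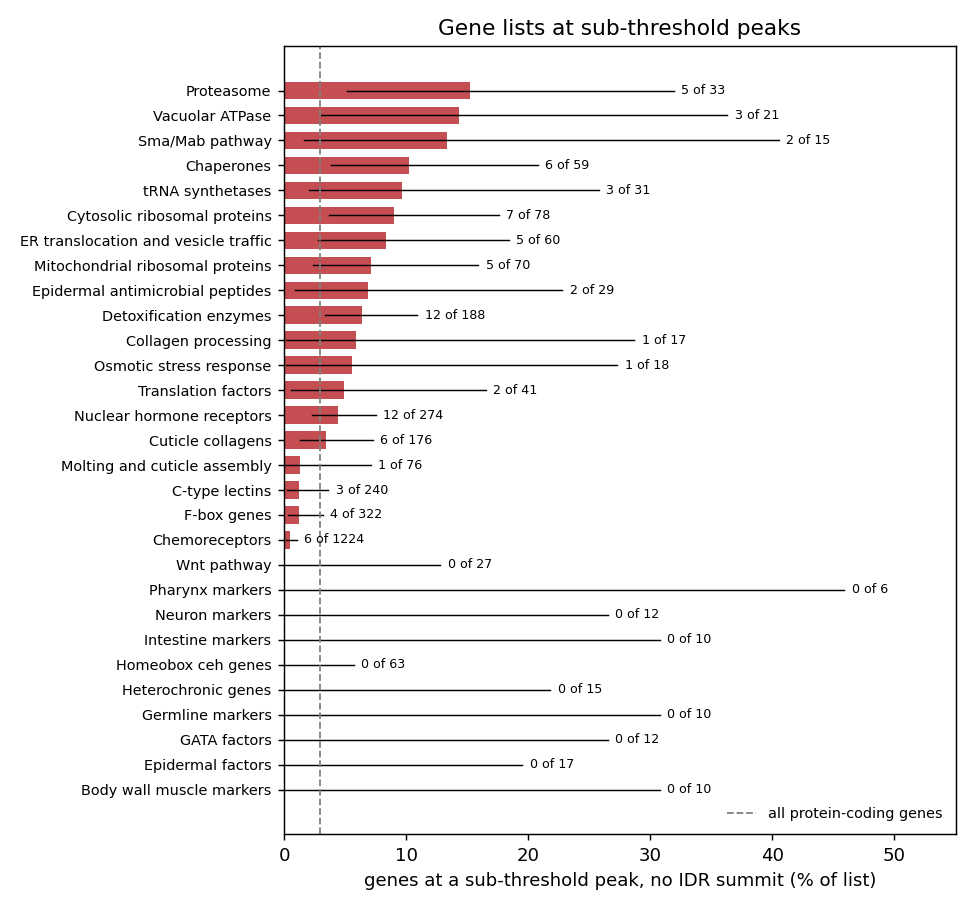
Share of the genes of each list (x axis, %) with a sub-threshold summit in the promoter window and no IDR summit, with exact 95% intervals as lines and counts beside them. The dashed line is the 2.95% of all protein-coding genes. Proteasome genes had 15.2% and chemoreceptor genes 0.490%.

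Pairs of sub-threshold summits in 1 promoter window, with no IDR summit, occurred at 7 of the 590 genes. They were F53C11.4 (35.0 and 25.8), Y17G7B.20 (27.7 and 28.7), the AT-hook factor gene attf-3 (28 and 29), the bromodomain gene bet-2 (32 and 30.2), dpf-3 (31.3 and 32.4), the malate dehydrogenase gene mdh-1 (25.2 and 25.7) and the syndecan gene sdn-1 (27.2 and 26.6). Of these, sdn-1 alone had a GATA site, 1 at each of its peaks. The attf-3 peak of signal 28, at -996 bp, also lay in the promoter windows of F54C4.4 and mrpl-40. That of Y17G7B.20 with signal 28.7 also lay in the window of ash-2.

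Among the 25 strongest sub-threshold peaks, 10 lay in promoters, 7 between genes, 4 in introns and 4 in exons. A GATA site was in 9 and replicate 2 overlapped 6, at hlh-11, ced-1, nep-26, imph-1, elof-1 and lin-35. Signals ran only from 35.1 to 35.5, so their order within this set says little. Besides the genes shown above, promoter peaks lay at nhr-47, at mce-1 and ndub-7, at elof-1 with lin-7 and Y54G11A.17, and at lin-35, the worm homologue of the retinoblastoma gene, with vps-51. Exon peaks had moc-6, ccd-5, rpl-3 and mak-1 as the gene of the nearest 5′ end. That near rpl-3 was 1730 bp downstream of the 5′ end (35.2, replicate 1 34.8). Intron peaks were nearest to C27D6.12, Y73F8A.26, nep-26 and nhr-3. Intergenic peaks were nearest to acs-10, F45D3.2, C01B10.11, F56H9.2, ced-1, which encodes a receptor for engulfing dying cells, dmsr-9 and brp-1.

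Windows with 2 or more GATA sites made up 10.4% of the sub-threshold peaks in promoters, 12.4% of those in introns, 10.8% between genes and 7.87% in exons. Of the 10 richest windows 3 were in promoters, where 40.3% of the set lay. The window with 5 matches was in an intron, at -13162 bp from hhat-1 (chromosome II, 14665147 to 14665442), with a signal of 33.7 in the pool, 33.1 in replicate 1 and none in replicate 2. Those with 4 were nearest to cpg-7 (30.6), nhr-145 (30.4), hlh-30 (27.9), a homologue of the lysosome and autophagy regulator TFEB, and R05G6.1 (26.9), none in a promoter. Of the strongest windows with 3, those at mltn-11, at cbs-1, a cystathionine beta-synthase gene (34.5), and at dpy-10, whose nearest 5′ end was that of T14B4.19, were in promoters. The others were near ced-1 and pmt-1 (33.7). Of these 10 peaks, that near ced-1 was overlapped by replicate 2, with a signal of 2.05.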

How the data were processed

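The authors deposited peak lists for the pooled alignments, for each biological replicate and for the IDR set, in ce10 and ce11, recorded in the labels' file descriptions as peaks and background or IDR thresholded. The signal of each peak is the deposited value, and so is its q-value, deposited on a −log10 scale. Which aligner and caller were used is not given in the sources used here, and depth is unknown. ce11 is the assembly WBcel235, whose sequence came from RefSeq and whose genes came from Ensembl release 115. Coordinates are 1-based.

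Sub-threshold peaks were taken by the signal minimum of 25 and absence from the IDR list. Motifs were counted within 50 bp of the summit on both strands. Shares were compared by Fisher's exact test, Benjamini-Hochberg adjusted at 0.05, and the summit with its flank by an exact McNemar test, in Python 3.11.15 with scipy 1.17.1. Intervals are exact 95% Clopper-Pearson. Replicate 2 also lists 25 peaks on the mitochondrial genome, which were not used, and the control experiment named in the labels was not analysed here. The motif search, McNemar test and location classes were tested on simulated data. For a single replicate, peaks at the ranks of the sub-threshold set were taken from that list. They were compared with that list's own 1202 strongest peaks in place of IDR peaks. Its own peaks below those ranks took the place of weaker peaks.

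The set, the gene lists and the tests were chosen with earlier results of these data known. The small RNA comparisons and the 6-base words were added after the files were seen. The rule for naming genes took the 25 strongest peaks, up to 4 genes per list by signal, genes with 2 or more summits, the 10 peaks with the most sites, and all GATA and epidermal factor genes. The remaining names (rpn-5, rpl-25.2, genes sharing a named peak, and genes at small RNA summits) were chosen after their values were seen. Alternatives covered signal minima, replicates, motif, window, flank, promoter and gene rules, and small RNA distances.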

Additional observations from a re-analysis of the deposited data

How the results depend on the processing

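For the 17 tested results, 128 of 167 alternative values kept their direction and their side of the threshold. This leaves out the peaks overlapped by replicate 1, which were all 1235. With either replicate left out, both sides of each comparison came from the remaining list, so its strongest peaks stand in for the IDR peaks. Values then ranged as follows: GATA site at summit minus flank -0.0810 to 12.1 points, against IDR peaks -4.68 to -2.26 and against weaker peaks 0.0304 to 9.54. Against IDR peaks, promoter shares gave -2.47 to 0.460, exon 3.38 to 4.40, intron -5.28 (adjusted p = 0.0399, Fisher's exact test) to 0.916 and intergenic -1.83 to 0.416. Against weaker peaks, promoter shares gave 0.761 to 14, exon -17.4 to 3.16, intron -2.19 to -1.16 and intergenic -2.77 to 5.62. Genes reached numbered 322 to 595. tRNA shares gave -0.00889 to 2.87 against IDR peaks and 0.138 to 3.14 against weaker peaks, snoRNA shares against weaker peaks -0.147 to 1.74, and snRNA shares -0.755 to -0.0854 against IDR peaks and 0.0810 to 0.0870 against weaker peaks.

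With the signal minimum at 20 there were 2887 peaks and 1247 genes, and at 30 there were 486 and 255. At 20 the promoter (-6.79), intergenic (-4.12) and snoRNA (-1.64) differences from IDR peaks passed, and the snRNA difference from weaker peaks was 0.195. At 30 the exon (2.18), GATA (-2.52) and snRNA (-0.998) differences from IDR peaks did not pass, and the intron difference was -0.328. With the 79 peaks overlapped by replicate 2 (38 genes), these did not pass: summit minus flank (10.1), the GATA (-0.960) and exon (2.75) differences from IDR peaks, the intergenic difference from weaker peaks (6.13), the tRNA differences (0.868 and 1.03), the snoRNA difference from weaker peaks (0.821) and the snRNA difference from IDR peaks (-0.998). The site difference from IDR peaks was also lost with a 100 bp window (-3.59) and, in an alternative added after the data were seen, without peaks at tRNA genes (-3.65). That from weaker peaks was lost with GATA alone (2.65). Promoters of 500 bp up to 100 bp down gave a promoter difference from IDR peaks of -4.50, which passed. With all annotated genes, 1110 genes were reached, the intron share differed from weaker peaks by -4.73, which passed, and from IDR peaks by -0.213. Small RNA genes within 100 bp gave an snRNA difference from weaker peaks of 0.00498. The cause of these changes was not tested. No paired analysis was possible because there was 1 group, so replicate numbers pair no samples across groups. The McNemar test pairs windows within a peak.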
